A study of Saccharomyces cerevisiae with 9 samples.

Results

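The pentose phosphate pathway of Saccharomyces cerevisiae was followed through the probes of 10 genes, of 6256 probes on the array, each gene having 1 probe. The genes were taken by symbol or systematic name, with earlier results of these data known. Of these, 4 belong to the oxidative branch (ZWF1, SOL3, GND1 and GND2) and 6 to the non-oxidative branch (RKI1, RPE1, TKL1, TKL2, TAL1 and NQM1). The oxidative branch takes glucose 6-phosphate to ribulose 5-phosphate and reduces NADP+ on the way. The non-oxidative branch interconverts the pentose phosphates and returns them to glycolysis as fructose 6-phosphate and glyceraldehyde 3-phosphate. In xylose-assimilating yeast the sugar enters at xylulose 5-phosphate, so that its carbon reaches glycolysis through the non-oxidative enzymes.

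The arrays compared the hybrid strain Hyb-8 with its parental strains, the acid-tolerant Sun224T-K and the thermotolerant Sun049T-Z, with 3 1-colour arrays per strain. All 3 strains derive from industrial diploids that carry a plasmid with XYL1 (xylose reductase) and XYL2 (xylitol dehydrogenase) of Scheffersomyces stipitis, the yeast gene XKS1 (xylulokinase) and a clonNAT resistance cassette. In Sun224T-K 1 copy of HO was replaced by a G418 marker, and in Sun049T-Z 1 copy by a zeocin marker. Hyb-8 is a single isolate, obtained after UV mutagenesis, sporulation, mating of the spores and selection under heat and acids. Cells for every array were sampled after 3 h in medium with xylose at 50 g/L that was kept at 38°C and contained acetic acid (20 mM) as well as formic acid (15 mM), so that no array showed an unstressed level. The arrays are described as triplicates with no statement of separate cultures, and the p-values therefore measure only the spread between these arrays, which may be technical.

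The labels give the genotype of Hyb-8 and Sun224T-K as PHO13 deleted and that of Sun049T-Z as control. No PHO13 deletion is listed among the strain genotypes in the methods of the study. The PHO13 probe went against these labels. Arrays labelled Hyb-8 gave -1.72 ± 0.02, arrays labelled Sun224T-K gave -1.56 ± 0.31, and arrays labelled Sun049T-Z gave -3.78 ± 0.10 (log2 relative to the 75th percentile of the array; mean ± SD, n = 3 each), all of them well above background. Each strain name below therefore means the arrays that carry that label, and the direction of every comparison rests on the labels. The labels also call the parental strains diploid. Of 17 genes expressed in haploid cells or in cells of 1 mating type, 13 to 15 were well above background on the Hyb-8 arrays, and 12 to 16 on those of each parental strain. Their summed level (log2) ran between 0.37 and 0.75 in Hyb-8, between 0.21 and 0.34 in Sun224T-K and between 0.67 and 0.83 in Sun049T-Z. Without STE18, a gene singled out after its values were seen, the sum of the other 16 ran between 0.28 and 0.64 in Hyb-8, between 0.17 and 0.25 in Sun224T-K and between 0.17 and 0.23 in Sun049T-Z. The parental strains then overlapped, and every Hyb-8 array lay above them. The sums add linear levels of different probes, so that the brightest probes weigh most in them. The median level of the 17 genes overlapped among all strains (-4.61 to -4.37 in Hyb-8, -5.05 to -4.39 in Sun224T-K and -4.78 to -4.46 in Sun049T-Z). STE2, STE3, STE4, STE5, STE6, STE18, MFA1, SAG1, GPA1, FAR1 and FUS3 were well above background on all 9 arrays. BAR1 and NEJ1 were so on 8, AGA2 and MFA2 on 5, and MFALPHA1 on 4. MFALPHA2 was well above background on 0 arrays. By the test described below, 4 of the 13 that could be tested were higher and 2 lower in Hyb-8 than in Sun049T-Z, where 28.7% and 27.3% of all probes were. Between Hyb-8 and Sun224T-K 0 of 13 passed in limma (3 at an unadjusted p under 0.05), against 5.48% of all probes, and 4 were higher and 6 lower in Sun224T-K than in Sun049T-Z, against 29.1% of all probes each way. BAR1, counted as higher in both comparisons with Sun049T-Z, was well above background on 2 of 3 Sun049T-Z arrays. It entered the test only through Hyb-8 and Sun224T-K. NEJ1, counted as lower in Sun224T-K, was well above background on 2 of 3 Sun224T-K arrays and entered only through Hyb-8 and Sun049T-Z. The place of BAR1 and NEJ1 in these counts is therefore no support for a difference. The part of the 17 genes in the results below was not tested.

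Levels are given throughout on the log2 scale as the distance from the 75th percentile of the intensities on the same array, which has the level 0. Levels of different probes cannot be set against each other. The intensity at the 75th percentile lay between 1044 and 4830, and from 90.2% to 96.5% of spots per array passed the scanner's test for signal well above background. On Sun049T-Z replicate 1 the spots of a probe scattered more than elsewhere (median SD 0.324 in log2 units, the other 8 arrays having at most 0.067), and this array and Hyb-8 replicate 2 were each alone on a slide. All 10 pathway genes were well above background on all 9 arrays and entered the test. Whether a probe matches the sequence of its gene in each of these industrial strains was not examined, for the members or for any other gene. A gene passed the test when its Benjamini-Hochberg adjusted p in the limma fit over 5947 probes was under 0.05. The 3 comparisons share arrays and are not independent of each other.

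Against Sun049T-Z, Hyb-8 had higher levels of the major transketolase and transaldolase genes and of both 6-phosphogluconate dehydrogenase genes. TKL1, GND1, TAL1 and GND2 were the members higher in the hybrid, by 3.79-, 2.48-, 1.94- and 1.89-fold, and RPE1 was lower, by 1.39-fold. The other 5 genes did not pass the test. Of all tested probes 28.7% passed as higher and 27.3% as lower (56% in all), and the 4 higher and 1 lower of 10 are read against that background. The arrays of both strains did not overlap for 4 members that were higher and 1 that was lower, where 34.1% and 31.6% of all probes separated in these directions. A fold change of at least 2 was called for 2 members, GND1 and TKL1, where 9.37% of all probes were called higher at that size. The median log2 fold change of the members was 0.03, equal at 2 decimals to that of all tested probes (0.03).

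Against Sun224T-K, Hyb-8 differed in 1 member. TKL2 was higher in the hybrid by 2.21-fold, and the other 9 genes did not pass, while 3.03% of all tested probes passed as higher (2.46% as lower, 5.48% in all). At a fold change of at least 2, TKL2 was 1 of 10 members called higher, against 0.858% of all probes. The arrays did not overlap for 2 members that were higher in Hyb-8 (TKL2 and NQM1) and 2 that were lower (GND1 and RPE1), with a background of 15.5% and 14.9% of probes. The median log2 fold change of the members was 0.18, against 0.01 over all tested probes. Between the parental strains, GND1, TKL1 and TAL1 were higher in Sun224T-K than in Sun049T-Z, by 3.16-, 4.09- and 2.04-fold, and ZWF1, TKL2 and NQM1 were lower, by 1.93-, 1.91- and 1.67-fold. The background of that comparison was 29.1% of probes higher and 29.1% lower (58.2% in all), and 9.42% were called higher at 2-fold or more, as were 3 members. The arrays of these strains did not overlap for 3 members that were higher and 4 that were lower, against 33.4% and 32.8% of all probes. The members' median was -0.20 there, against 0.00 over all tested probes.

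**Figure D1:**
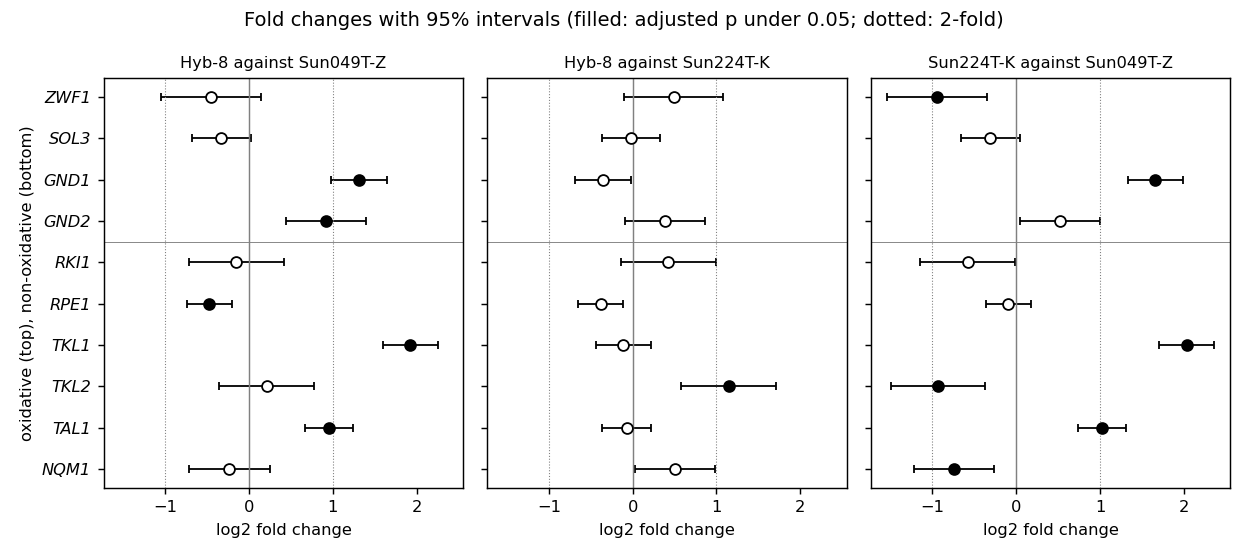
Log2 fold changes of the 10 pathway genes in the 3 comparisons, with 95% intervals of the limma fit. Filled points passed at an adjusted p under 0.05, dotted lines mark 2-fold, and TKL1 and GND1 lie to the right of the 2-fold line in both comparisons with Sun049T-Z, whereas only TKL2 passed between Hyb-8 and Sun224T-K.

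The oxidative branch opens with ZWF1 (YNL241C, chromosome XIV), glucose-6-phosphate dehydrogenase, which makes the first NADPH of the pathway. Its level was 0.97, 0.36 and 1.08 in Hyb-8, 0.46, -0.0033 and 0.48 in Sun224T-K, and 1.79, 1.04 and 0.95 in Sun049T-Z. The Sun224T-K arrays all lay below the Sun049T-Z arrays, while the Hyb-8 arrays overlapped with those of both parental strains. The log2 fold change of Sun224T-K against Sun049T-Z was -0.95 ± 0.26 (SE; adjusted p = 0.0124, limma), with values of -0.81 within slide 2 and -0.46 within slide 4, the slides that held both strains. The value within slide 2 uses the mean of Sun224T-K replicates 1 and 2. For Hyb-8 the log2 fold change was -0.46 ± 0.26 against Sun049T-Z (adjusted p = 0.168) and 0.49 ± 0.26 against Sun224T-K (adjusted p = 0.314). Hyb-8 and Sun049T-Z differed by -0.07 and 0.13 within these slides. Sun049T-Z replicate 1 had the highest level of ZWF1, and without that array the difference between Hyb-8 and Sun049T-Z was -0.19.

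SOL3 (YHR163W, chromosome VIII) encodes 6-phosphogluconolactonase, the enzyme of the next step. Its level was -2.65, -2.83 and -2.81 in Hyb-8, -2.92, -2.52 and -2.77 in Sun224T-K, and -2.72, -2.20 and -2.37 in Sun049T-Z. The 3 strains overlapped, and no comparison of SOL3 passed the test. The difference between Hyb-8 and Sun049T-Z was -0.33 (95% interval -0.68 to 0.02), between Hyb-8 and Sun224T-K -0.02 (-0.37 to 0.32), and between Sun224T-K and Sun049T-Z -0.31 (-0.65 to 0.04). On Sun049T-Z replicate 1 the spots of this probe had an SD of 0.977. Without that array SOL3 passed as lower than in Sun049T-Z, with differences of -0.47 in Hyb-8 (adjusted p = 0.0175, limma) and -0.45 in Sun224T-K (adjusted p = 0.021), and over all 22 alternatives it passed in 3 and 5 of them.

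GND1 and GND2 are paralogues that encode 6-phosphogluconate dehydrogenase, the source of the second NADPH. GND1 (YHR183W, chromosome VIII) is the major isoform. Its level was 0.58, 0.69 and 0.37 in Hyb-8, 0.81, 1.12 and 0.75 in Sun224T-K, and -0.97, -0.74 and -0.59 in Sun049T-Z. Every Hyb-8 and every Sun224T-K array was above every Sun049T-Z array, and every Hyb-8 array was below every Sun224T-K array. The log2 fold change was 1.31 ± 0.15 for Hyb-8 against Sun049T-Z (SE; adjusted p = 7.65e-05, limma) and 1.66 ± 0.15 for Sun224T-K against Sun049T-Z (adjusted p = 1.69e-05). Between Hyb-8 and Sun224T-K it was -0.35 ± 0.15 and did not pass (adjusted p = 0.202), although the arrays did not overlap. Within slides 2 and 4, the difference between Hyb-8 and Sun049T-Z was 1.32 and 0.95.

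GND2 (YGR256W, chromosome VII), the minor isoform, lay at 3.20, 3.45 and 3.03 in Hyb-8, at 3.12, 2.34 and 3.04 in Sun224T-K, and at 2.52, 2.21 and 2.19 in Sun049T-Z. The Hyb-8 arrays were all above the Sun049T-Z arrays. Sun224T-K replicate 2 fell among the Sun049T-Z arrays, and the other Sun224T-K arrays were above them. Hyb-8 against Sun049T-Z gave a log2 fold change of 0.92 ± 0.21 (SE; adjusted p = 0.00485, limma), with 0.99 and 0.83 within slides 2 and 4. Sun224T-K and Sun049T-Z differed by 0.53 ± 0.21, which did not pass (adjusted p = 0.0565). This difference passed in 6 of 22 alternatives, with an adjusted p between 0.0037 and 0.178 (limma). Without Sun224T-K replicate 2 it was 0.77 and passed (adjusted p = 0.0037), as it did without Sun049T-Z replicate 1 (0.63, adjusted p = 0.0436) and with the spots marked as outliers kept (0.95, adjusted p = 0.0191). Hyb-8 and Sun224T-K differed by 0.39 (95% interval -0.08 to 0.87).

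**Figure D2:**
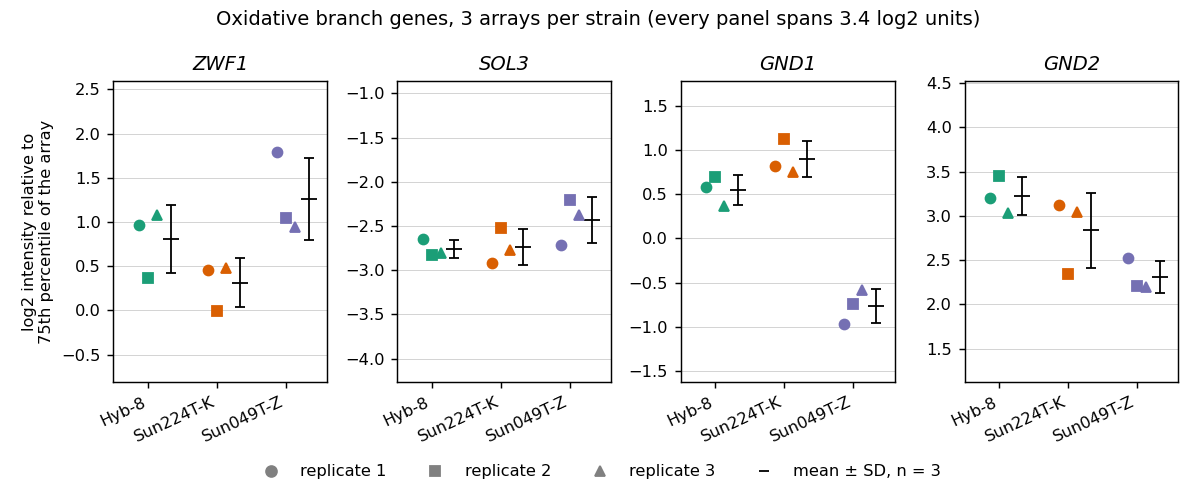
Levels of the 4 genes of the oxidative branch on each array (log2 relative to the 75th percentile), with the mean and SD of 3 arrays per strain. GND1 averaged 0.55 in Hyb-8, 0.90 in Sun224T-K and -0.77 in Sun049T-Z, and SOL3 overlapped among the strains.

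In the non-oxidative branch, RKI1 and RPE1 share the first step, the conversion of ribulose 5-phosphate. RKI1 (YOR095C, chromosome XV), ribose-5-phosphate ketol-isomerase, makes ribose 5-phosphate. Its level was -0.65, -1.27 and -0.21 in Hyb-8, -1.41, -0.82 and -1.18 in Sun224T-K, and -0.42, -0.68 and -0.58 in Sun049T-Z. The Hyb-8 arrays overlapped with those of both parental strains, and every Sun224T-K array lay below every Sun049T-Z array. This difference of -0.58 ± 0.25 between Sun224T-K and Sun049T-Z did not pass (SE; adjusted p = 0.0735, limma). It passed in 4 of 22 alternatives, namely with only the arrays of both strains in the fit (adjusted p = 0.0256), without replicate 2 of Sun224T-K (adjusted p = 0.0465), and without replicate 2 or 3 of Hyb-8 (adjusted p = 0.0251 and 0.0408). The comparisons of RKI1 with Hyb-8 did not pass either, with differences of -0.15 (95% interval -0.71 to 0.41) between Hyb-8 and Sun049T-Z and 0.43 (-0.14 to 0.99) between Hyb-8 and Sun224T-K.

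RPE1 (YJL121C, chromosome X), ribulose-phosphate 3-epimerase, connects ribulose 5-phosphate with xylulose 5-phosphate, the point where xylose carbon enters. Its level was -0.39, -0.45 and -0.22 in Hyb-8, 0.03, -0.02 and 0.07 in Sun224T-K, and 0.34, -0.03 and 0.05 in Sun049T-Z. All 3 Hyb-8 arrays were below all 6 parental arrays, and the parental strains overlapped. In Hyb-8 the log2 fold change was -0.47 ± 0.12 against Sun049T-Z (SE; adjusted p = 0.00795, limma) and -0.38 ± 0.12 against Sun224T-K, where it did not pass (adjusted p = 0.1). Within slides 2 and 4 the differences were -0.36 and -0.27 from Sun049T-Z, and -0.40 and -0.29 from Sun224T-K. Without Sun049T-Z replicate 1 the comparison with Sun224T-K passed (adjusted p = 0.0447). The difference between Sun224T-K and Sun049T-Z was -0.09 (95% interval -0.36 to 0.18).

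Transketolase and transaldolase carry out the carbon exchanges that follow, and both exist as a major and a minor paralogue. TKL1 (YPR074C, chromosome XVI), the major transketolase, had the largest fold change of the 10 genes in both comparisons with Sun049T-Z. Its level was -0.36, -0.05 and -0.19 in Hyb-8, -0.16, 0.20 and -0.31 in Sun224T-K, and -2.19, -2.17 and -2.01 in Sun049T-Z. The Hyb-8 and Sun224T-K arrays overlapped, and both stood far above the Sun049T-Z arrays. In the fit the log2 fold change was 1.92 ± 0.15 for Hyb-8 against Sun049T-Z (SE; adjusted p = 6.67e-06, limma) and 2.03 ± 0.15 for Sun224T-K against Sun049T-Z (adjusted p = 4.96e-06). Within slides 2 and 4 Hyb-8 differed from Sun049T-Z by 1.81 and 1.82. Hyb-8 and Sun224T-K differed by -0.11 (95% interval -0.44 to 0.22).

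TAL1 (YLR354C, chromosome XII), the major transaldolase, followed the same order of strains. Its level was -0.11, -0.07 and -0.24 in Hyb-8, -0.02, -0.07 and -0.10 in Sun224T-K, and -1.37, -0.94 and -0.97 in Sun049T-Z. Again the Hyb-8 and Sun224T-K arrays overlapped and both were above every Sun049T-Z array. Its log2 fold change was 0.95 ± 0.13 for Hyb-8 against Sun049T-Z (SE; adjusted p = 0.000214, limma), with 0.83 and 0.73 within slides 2 and 4, and 1.03 ± 0.13 for Sun224T-K against Sun049T-Z (adjusted p = 0.000133). Sun049T-Z replicate 1 had the lowest TAL1 level, with an SD of 1.25 between its spots. Without it the fold changes were 0.82 for Hyb-8 and 0.89 for Sun224T-K, both under 2-fold and both past the test (adjusted p = 0.000185 and 0.000113). Hyb-8 and Sun224T-K differed by -0.07 (95% interval -0.36 to 0.22).

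**Figure D3:**
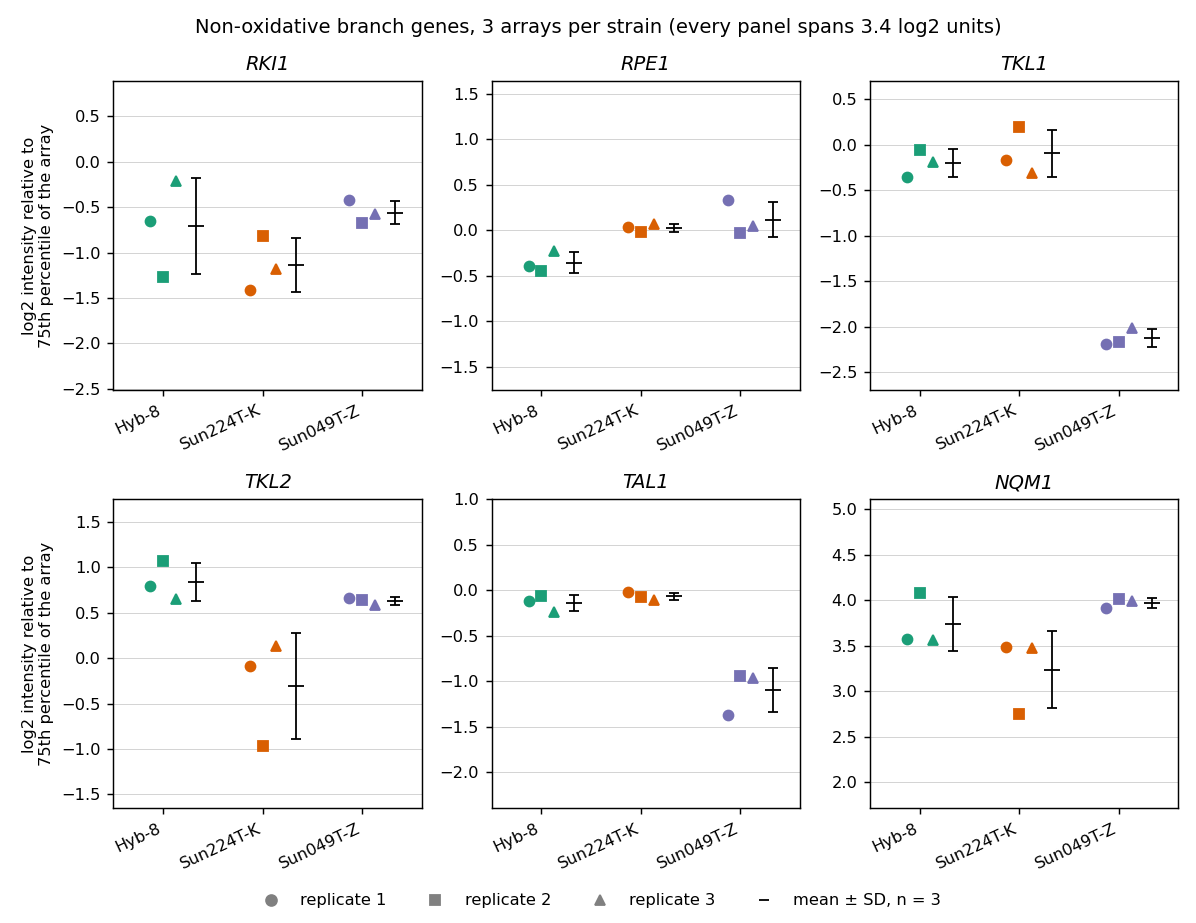
Levels of the 6 genes of the non-oxidative branch on each array (log2 relative to the 75th percentile), with the mean and SD of 3 arrays per strain. TKL1 and TAL1 were low in Sun049T-Z (-2.13 and -1.09) and near 0 in the other strains, whereas TKL2 was lowest in Sun224T-K (-0.31).

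The minor transketolase and transaldolase genes did not share that order. TKL2 (YBR117C, chromosome II), the minor transketolase, lay at 0.79, 1.07 and 0.65 in Hyb-8, at -0.08, -0.97 and 0.13 in Sun224T-K, and at 0.67, 0.64 and 0.58 in Sun049T-Z. All Sun224T-K arrays were below those of Hyb-8 and of Sun049T-Z, which overlapped. The log2 fold change was 1.14 ± 0.25 for Hyb-8 against Sun224T-K (SE; adjusted p = 0.0337, limma) and -0.94 ± 0.25 for Sun224T-K against Sun049T-Z (adjusted p = 0.00992). Between Hyb-8 and Sun049T-Z it was 0.21 (95% interval -0.35 to 0.77).

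The TKL2 difference between Hyb-8 and Sun224T-K kept its direction but not its call. It was 1.32 within slide 2 and 0.52 within slide 4, and with the slide as a block 1.00 (adjusted p = 0.152, limma). Slide 2 held replicates 1 and 2 of Sun224T-K, and the values within that slide use their mean, so that they include replicate 2. Sun224T-K replicate 2 had the lowest TKL2 level of all 9 arrays, and without it the difference was 0.81 (adjusted p = 0.0219) and under 2-fold. The adjusted p lay between 0.0219 and 0.152 over 22 alternative settings and passed in 12 of them. It was no longer under 0.05 when Hyb-8 replicate 1, 2 or 3 or Sun049T-Z replicate 2 or 3 was left out. The difference between Sun224T-K and Sun049T-Z was -1.16 and -0.45 within slides 2 and 4 and -0.61 without Sun224T-K replicate 2 (adjusted p = 0.00699), and of the 22 alternatives only the slide block left it without a call (adjusted p = 0.0577).

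NQM1 (YGR043C, chromosome VII), the minor transaldolase, lay at 3.57, 4.08 and 3.56 in Hyb-8, at 3.48, 2.75 and 3.47 in Sun224T-K, and at 3.91, 4.01 and 4.0 in Sun049T-Z. Every Sun224T-K array was below every array of the other strains. Sun224T-K replicate 2 was again the lowest array. The log2 fold change of Sun224T-K against Sun049T-Z was -0.74 ± 0.21 (SE; adjusted p = 0.0146, limma), and -0.49 without that array (adjusted p = 0.0316). Hyb-8 and Sun224T-K differed by 0.50 ± 0.21, which did not pass (adjusted p = 0.201), and Hyb-8 and Sun049T-Z by -0.23 (95% interval -0.71 to 0.25).

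Because the scaling of an array cancels between probes of the same array, the paralogue pairs were also compared by the log2 difference of minor minus major paralogue on each array. For TKL2 minus TKL1, Hyb-8 differed from Sun049T-Z by -1.72, which is a ratio 3.28-fold lower, and Sun224T-K differed from Sun049T-Z by -2.97, or 7.83-fold. For NQM1 minus TAL1 the differences from Sun049T-Z were -1.19 in Hyb-8 and -1.77 in Sun224T-K (2.28- and 3.4-fold lower). For GND2 minus GND1 they were -0.40 and -1.14 (1.31- and 2.20-fold lower). In all 3 pairs the Hyb-8 arrays lay between those of Sun224T-K and Sun049T-Z with no overlap on either side. The share of other probe pairs with such an order was not computed, so this is a description only. Of single probes, 34.1% were higher and 31.6% lower in Hyb-8 than in Sun049T-Z without overlap. Against Sun224T-K these shares were 15.5% and 14.9%. In the paralogue difference Hyb-8 exceeded Sun224T-K by 1.25 for the transketolases, 0.58 for the transaldolases and 0.74 for the 6-phosphogluconate dehydrogenases. Each of these 9 comparisons gave p = 0.1 in the exact two-sided permutation test of 3 arrays against 3, the smallest p that this design allows, and adjustment over the 9 leaves it at that value.

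With the mean of Sun049T-Z set to 0, the transketolase difference ran between -1.91 and -1.60 in Hyb-8, between -3.92 and -2.31 in Sun224T-K and between -0.16 and 0.10 in Sun049T-Z. The transaldolase difference ran between -1.38 and -0.92 in Hyb-8, between -2.25 and -1.49 in Sun224T-K and between -0.11 and 0.22 in Sun049T-Z. The Sun224T-K arrays were thus the most spread in both pairs, replicate 2 being the lowest. For the 6-phosphogluconate dehydrogenases the Hyb-8 arrays ran between -0.46 and -0.32, the Sun224T-K arrays between -1.86 and -0.77, and the Sun049T-Z arrays between -0.29 and 0.42. In this pair Hyb-8 and Sun049T-Z differed by -0.40, which became -0.19, still with no overlap, without Sun049T-Z replicate 1, and -0.09 with the spots marked as outliers kept (exact permutation p = 0.6). Whether each probe separates its gene from the paralogue was not examined here.

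**Figure D4:**
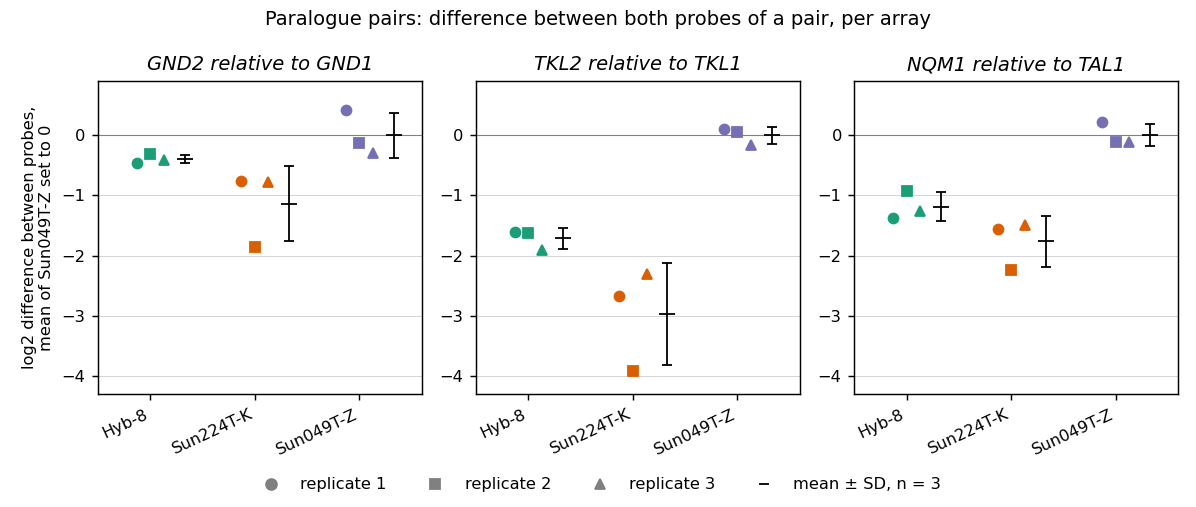
Log2 difference of minor minus major paralogue on each array, with the mean of Sun049T-Z set to 0 for each pair. For the transketolases and the transaldolases the Hyb-8 arrays lie between the lower Sun224T-K arrays and the higher Sun049T-Z arrays.

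A list of 22 other genes around the pathway was examined beside the members, of which 20 could be tested. The sorbitol dehydrogenase genes SOR1 and SOR2 were well above background on 0 Hyb-8 arrays, 0 Sun224T-K arrays and 1 Sun049T-Z array each, and were not tested. Of the 20, 7 were higher and 7 lower in Hyb-8 than in Sun049T-Z, where the shares of all probes were 28.7% and 27.3%. In Sun224T-K 7 were higher and 6 lower than in Sun049T-Z, against 29.1% of all probes each way. Between Hyb-8 and Sun224T-K 1 of 20 passed, against 5.48% of all probes: ARO4 was lower in Hyb-8 by 0.61 on the log2 scale (adjusted p = 0.0236, limma; 0.0146 to 0.102 over 22 alternatives). The median log2 fold changes of the list were -0.16, 0.02 and -0.08 for Hyb-8 against Sun049T-Z, Hyb-8 against Sun224T-K and Sun224T-K against Sun049T-Z.

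Among the genes next to the oxidative branch, SOL4 encodes a second 6-phosphogluconolactonase. Its level was 0.07, 0.96 and -0.21 in Hyb-8, 0.36, -1.17 and 0.21 in Sun224T-K, and 2.25, 2.06 and 2.00 in Sun049T-Z. SOL4 was lower than in Sun049T-Z by 3.57-fold in Hyb-8 and by 4.94-fold in Sun224T-K, where its paralogue SOL3 did not pass in either comparison. SOL1, which is related to the lactonases in sequence, was lower by 1.95-fold in Hyb-8 and by 2.11-fold in Sun224T-K. SOL2, another relative, was lower in Hyb-8 by 1.21-fold (adjusted p = 0.0378, limma; it passed in 11 of 22 alternatives).

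STB5 encodes a transcription factor known to activate genes of this pathway. It lay at -4.91, -4.80 and -5.02 in Hyb-8, at -5.09, -5.34 and -4.94 in Sun224T-K, and at -3.55, -3.97 and -3.94 in Sun049T-Z. Against Sun049T-Z its log2 fold changes were -1.09 ± 0.15 for Hyb-8 and -1.30 ± 0.15 for Sun224T-K (SE; adjusted p = 0.000244 and 8.01e-05, limma). Of the members, GND1, TKL1 and TAL1 were higher in both of these comparisons, and GND2 in that of Hyb-8. RPE1 was lower in Hyb-8, and ZWF1, TKL2 and NQM1 were lower in Sun224T-K. A link between the STB5 level and the members was not tested. Of the other enzymes that make NADPH, ALD6, the cytosolic acetaldehyde dehydrogenase, was higher than in Sun049T-Z by 1.94-fold in Hyb-8 and by 1.57-fold in Sun224T-K. IDP2, the cytosolic isocitrate dehydrogenase, was lower by 1.59- and 1.57-fold.

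Around the non-oxidative branch, SHB17, the sedoheptulose bisphosphatase that feeds ribose synthesis, was lower than in Sun049T-Z by 4.16-fold in Hyb-8 and by 4.10-fold in Sun224T-K. RBK1, ribokinase, was higher by 1.69- and 1.5-fold in these strains. Of the 5 genes for phosphoribosyl pyrophosphate synthetase, which uses ribose 5-phosphate, PRS4 and PRS5 were higher in both comparisons (log2 fold changes of 0.58 and 0.76 for Hyb-8, and 0.46 and 1.00 for Sun224T-K), and PRS1, PRS2 and PRS3 did not pass. For PRS1 the Sun049T-Z arrays were far apart, at 0.36, 1.80 and 1.76 (SD 0.82). Replicate 1 was below all arrays of the other strains (1.35 to 1.59), and replicates 2 and 3 were above them. PGI1, phosphoglucose isomerase, which joins fructose 6-phosphate to the head of the oxidative branch, was higher by 2.35-fold in Hyb-8 and by 2.36-fold in Sun224T-K.

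ARO3 and ARO4 encode the enzymes that draw erythrose 4-phosphate into aromatic amino acid synthesis. ARO4 was higher than in Sun049T-Z by 2.72-fold in Hyb-8 and by 4.15-fold in Sun224T-K. ARO3 lay at -0.42, -0.65 and -0.36 in Hyb-8, at -0.13, 0.12 and -0.13 in Sun224T-K, and at -5.50, -6.12 and -7.22 in Sun049T-Z, of which 2 were well above background and replicate 1 was not. The log2 fold changes of ARO3 against Sun049T-Z were 5.80 for Hyb-8 and 6.23 for Sun224T-K, and 4.18 and 4.59 with the normexp background correction. ARO3 entered the test only through Hyb-8 and Sun224T-K, the strains in which it was high. It was not tested when every array had to be well above background. Its place among the higher genes counted above is therefore no support for a difference. As for the other genes, whether the probe matches the ARO3 sequence of each strain was not examined here.

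Of the genes that bring xylose to the pathway, XKS1, which is also on the plasmid, did not pass in any comparison. Its difference between Hyb-8 and Sun049T-Z was -0.09 (95% interval -0.30 to 0.11). GRE3, the native aldose reductase, was lower than in Sun049T-Z by 3.24-fold in Hyb-8 and by 2.75-fold in Sun224T-K, and the yeast's own XYL2 did not pass. PGM3, a phosphopentomutase that acts on ribose phosphates, did not pass in any comparison.

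**Figure D5:**
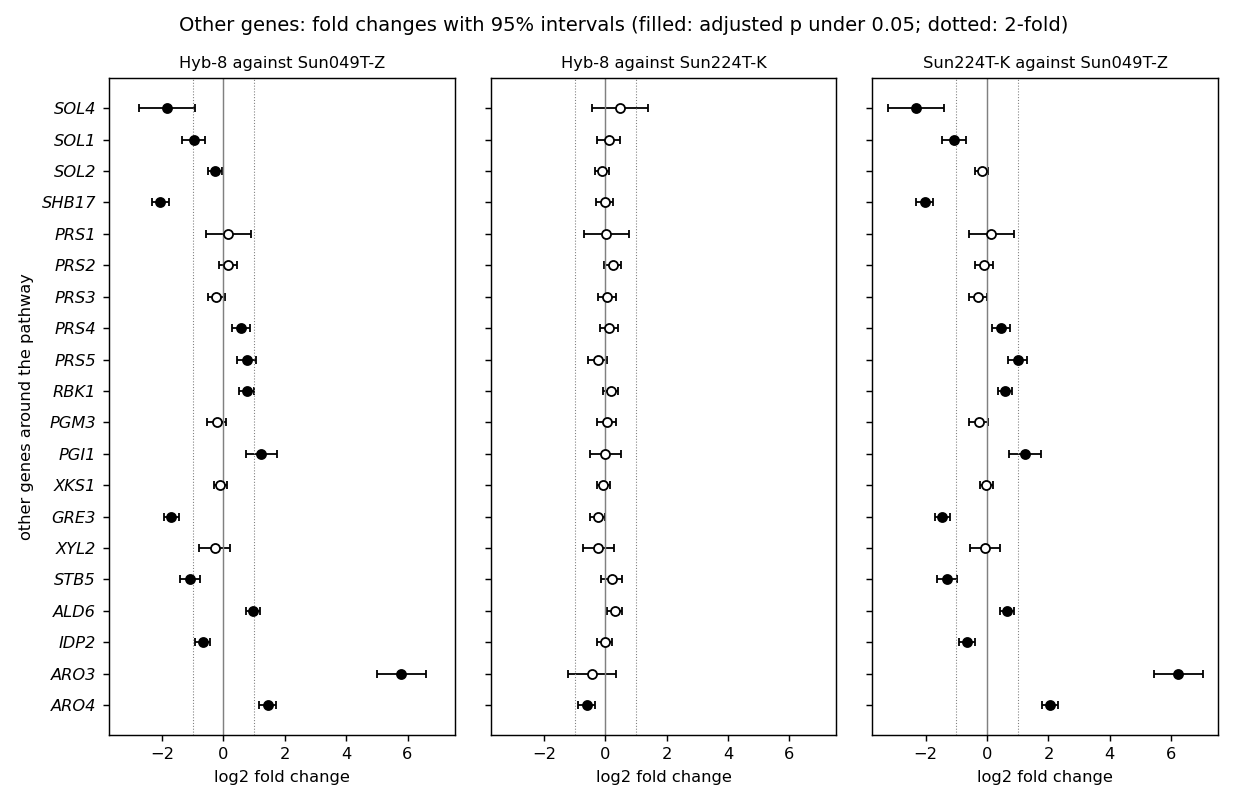
Log2 fold changes of the 20 tested genes around the pathway in the 3 comparisons, with 95% intervals of the limma fit (filled, adjusted p under 0.05; dotted lines, 2-fold). ARO3 reached 5.80 and 6.23 in the comparisons with Sun049T-Z, in which 1 of 3 arrays was not well above background (4.18 and 4.59 with the normexp background), SHB17, SOL4 and GRE3 lay below the lower 2-fold line in both, and only ARO4 passed between Hyb-8 and Sun224T-K.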

How the data were processed

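The authors deposited the Feature Extraction output of each 1-colour Agilent array (version 10.1.1.1 per the submitters' processing notes), with background-subtracted spot intensities on a linear scale, and a GeneSpring table of log2 values. Set against the scanner values, the columns of that deposited log2 table matched levels from which the 9-array median of the probe had been subtracted (slope 0.996 to 1.00), with column medians of 0.082 for Sun049T-Z replicate 1 and 0 for the other 8 arrays. It served as an alternative.

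From the scanner values, control and outlier spots were left out, log2 intensities were shifted so that the 75th percentile of every array was 0, the 7 spots of a probe were averaged, and probes well above background (most of the spots) on all 3 arrays of at least 1 strain were kept (5947 of 6256). limma 3.58.1 (lmFit and eBayes, R 4.3.3) was fitted to the 9 arrays together, with no term besides the strain, and p-values were adjusted by Benjamini-Hochberg over all probes kept. Fold changes are the first-named strain over the other. Gene names came from a table of assembly R64, which 5756 probes matched and 500 did not. The test was checked on simulated arrays of 5947 genes with 200 raised in Hyb-8. In the comparison with Sun049T-Z it passed 12% of those raised by 0.5 log2 units, 75% by 1 and 95.5% by 2. In that with Sun224T-K it passed 18%, 80.5% and 97.5%, and in both at most 0.209% of unchanged genes. These shares hold for 200 raised genes only. In the data 56% of probes passed between Hyb-8 and Sun049T-Z, among them RPE1 at -0.47 and SOL2 at -0.28. Recovery with so many probes changed was not tested.

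The genes named are all 10 members, the genes of the list around the pathway that passed in any comparison, STB5 and PHO13. PGM3, XKS1, XYL2, PRS1, PRS2, PRS3, SOR1 and SOR2 complete that list, and the 17 haploid-expressed genes were the marker list. Members and lists were chosen with earlier results of these data known. The 4 slides coincided with the scan sessions. Slides 2 and 4 held all 3 strains. Slide 2 held replicates 1 and 2 of Sun224T-K, and differences within that slide use their mean. Alternatives concerned the background, the normalization, the filter, outlier and saturated spots, the arrays in the fit, the moderation, blocks for the slide or the replicate number, and leaving out single arrays. Precision was limited by the signal over background and by the 3 arrays per strain.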

Additional observations from a re-analysis of the deposited data

How the results depend on the processing

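GND1, TKL1 and TAL1 in both comparisons with Sun049T-Z, GND2 and RPE1 between Hyb-8 and Sun049T-Z, and ZWF1 and NQM1 between the parental strains passed in all 22 alternatives. Between Hyb-8 and Sun224T-K, the single member that passed, TKL2, was lost, leaving 0 higher and 0 called at 2-fold, with the normexp background, with only the arrays of both strains in the fit, with the slide as a block and with both arrays alone on a slide left out (an alternative chosen after seeing the data). With the replicate number as a block it was lost as well (adjusted p = 0.0753, limma, 0 members passed and 0 at 2-fold). The numbers come with no stated link between strains, and the deviations of same-numbered arrays correlated between -0.25 and 0.15, so that they were not taken as pairs. When arrays were left out one at a time, 0 to 1 members passed as higher, 0 to 1 as lower and 0 to 1 were called higher at 2-fold in that comparison. ARO4, the single gene of the list around the pathway, was lost with the replicate block, with the slide block and with both lone arrays left out (0 genes), and 0 to 1 genes passed when single arrays were left out. The alternatives for this list were also added after seeing the data.

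Between Hyb-8 and Sun049T-Z, 2 members were lower with the median of each array as the scale and with both lone arrays left out, and 1 to 2 when single arrays were left out. The count called higher at 2-fold was 2 to 4 there, 4 being reached without Hyb-8 replicate 3, since GND2 and TAL1 lay near the threshold. Between Sun224T-K and Sun049T-Z, 3 to 4 members passed as higher and 3 to 4 as lower over all alternatives, and 1 member was lower at 2-fold with the normexp background and 2 with the median as the scale, against 0, and 0 to 2 when single arrays were left out, since ZWF1 and TKL2 lay near 2-fold. All sign changes were in differences that did not pass. With the slide block ZWF1 became 0.030 and RKI1 0.20 between Hyb-8 and Sun049T-Z, SOL3 0.031 between Hyb-8 and Sun224T-K, and RPE1 0.034 between the parental strains. With both lone arrays left out these were 0.030, 0.20, 0.011 and 0.018, and SOL3 was 0.057 with the normexp background. When single arrays were left out, RKI1 ran between -0.40 and 0.13 for Hyb-8 against Sun049T-Z (positive without Hyb-8 replicate 2), SOL3 between -0.11 and 0.084 and TKL1 between -0.22 and 0.036 for Hyb-8 against Sun224T-K (both highest without replicate 2 of Sun224T-K), and RPE1 between -0.17 and 0.018 for the parental strains (positive without Sun049T-Z replicate 1). The cause was not tested. Across the scalings the median of all probes moved by 0.09 or less on the log2 scale.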

Other observations

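The genes whose levels over the 9 arrays were most like those of a pathway gene were looked up among all probes tested, as a description, since the arrays of a strain share their difference from the other strains. The levels of TKL1 were most like those of KRS1 (lysyl-tRNA synthetase; Pearson r = 0.996) and UTP15 (a ribosome biogenesis factor; r = 0.994). Those of TAL1 were most like GPP1 (glycerol-phosphate phosphatase) and THI21, each with r = 0.996. GND1 was closest to SPT14 (r = 0.991) and ADK1 (adenylate kinase; r = 0.989). TKL2 was closest to HXT5 (a hexose transporter; r = 0.988) and HMG1 (HMG-CoA reductase; r = 0.982), and NQM1 to MLG1 (r = 0.993) and LPX2 (r = 0.980). For GND2 the closest genes were BNA5 (r = 0.981) and SSP120 (r = 0.971), for ZWF1 HST3 (r = 0.968) and HRD1 (r = 0.954), and for RPE1 MTG1 (r = 0.962) and HOG1 (r = 0.948).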
